A study of Mus musculus with 5 samples.

Results

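The 3′ part of the T cell receptor alpha and delta locus was examined in double positive (DP) thymocytes, the immature cells of the thymus that carry both CD4 and CD8. It holds part of the genes Tcra and Tcrd, which encode the receptor's alpha and delta chains, and the neighbouring gene Dad1. Its members were all regions of 3 deposited lists that overlapped chr14:54400001-54950000 of the mouse build mm9, a window of 550 kb. They numbered 107 of 56796 regions: 85 of 48320 DNaseI regions, 21 of 3546 TCF1 regions and 1 of 4930 HEB regions. Each list came from 1 sample of DP thymocytes of C57/BL6 mice aged 4 to 6 weeks, with no genotype or treatment given. The DNaseI sample mapped open chromatin by light digestion of intact nuclei with the enzyme DNase I. The other two mapped the transcription factors HEB and TCF1 by chromatin immunoprecipitation. No assay had a replicate and no control was analysed here, so no difference below was tested, and every interval covers counting error only. How the thymocytes were purified, and whether animals were pooled, is not stated in the labels.

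Tcra is assembled by joining 1 of many V segments to 1 of many J segments next to the constant region, and DP thymocytes are the stage at which this occurs. Tcrd is nested inside Tcra, between the V and the J alpha segments, and is removed when Tcra rearranges. In the RefSeq gene table the order along the chromosome runs from Trdc, the delta constant region, through Trdv5 and 60 Traj entries (9 of them pseudogenes) to Trac, the alpha constant region, and then Dad1. Dad1, expressed in most tissues, encodes a subunit of the oligosaccharyltransferase that attaches sugars to proteins in the endoplasmic reticulum. Abhd4, Olfr49 and Gm43305 are the next entries on its far side, and Traj2, Traj1 and Trac on its near side. The T cell receptor alpha enhancer lies between Trac and Dad1 and is known to open the J segments of thymocytes. TCF1, encoded by Tcf7, belongs to the TCF and LEF family of HMG-box proteins known to bind that enhancer. HEB, encoded by Tcf12, is an E protein that binds E-box sequences. That gene table is of another build, GRCm38.p6, so it gave names and order only. No region below was placed on a J segment, a constant region, the enhancer or the promoter of Dad1, and the cell type was not checked against markers.

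TCF1 regions were more numerous here than in any other window of the same length, whereas the number of HEB regions was close to the average. The mouse chromosomes were divided into 4807 windows of 550 kb, in phase with this one on chromosome 14. The 21 TCF1 regions, or 38.2 per Mb (95% exact Poisson interval 23.6 to 58.4), ranked first, at 28.4 times the mean of 0.738 per window. The next window, chr7:134200001-134750000, held 11 TCF1 regions, and 3157 windows held none. The 85 DNaseI regions, or 154.5 per Mb (123.4 to 191.1), ranked 26th together with 3 other windows, at 8.45 times the mean of 10.1, with 129 in the highest window. The DNaseI rank was 41st by bases covered and 65th among regions with scores above the list's median. The single HEB region lay at the mean of 1.03 per window, and 1337 other windows also held exactly 1. On chromosome 14 as a whole, the window carried 17.8% of the 118 TCF1 regions, 5.17% of the 1645 DNaseI regions and 0.508% of the 197 HEB regions.

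The same numbers can be set against windows with a similar number of DNaseI regions. These were matched by that count alone, not by bases covered or by score. Among 49 other windows with 70 to 100 DNaseI regions, TCF1 counts ran from 0 to 11 with a median of 4. HEB counts in these windows ran from 0 to 14 with a median of 4, and 45 of the 49 held more HEB regions than the 1 found here. Only 4 other windows held at least 10 TCF1 regions, and these carried 4 to 7 HEB regions each. At a minimum of 8 TCF1 regions there were 20 other windows, with 0 to 13 HEB regions and a median of 6, and 1 of them held 1 or fewer. Of the 4 with at least 10 TCF1 regions, chr9:44550001-45100000 was closest in number of DNaseI regions, with 86. It held 10 TCF1 and 4 HEB regions. The plot of counts per window sets this locus, with 21 TCF1 regions and 1 HEB region, against all others.

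**Figure D1:**
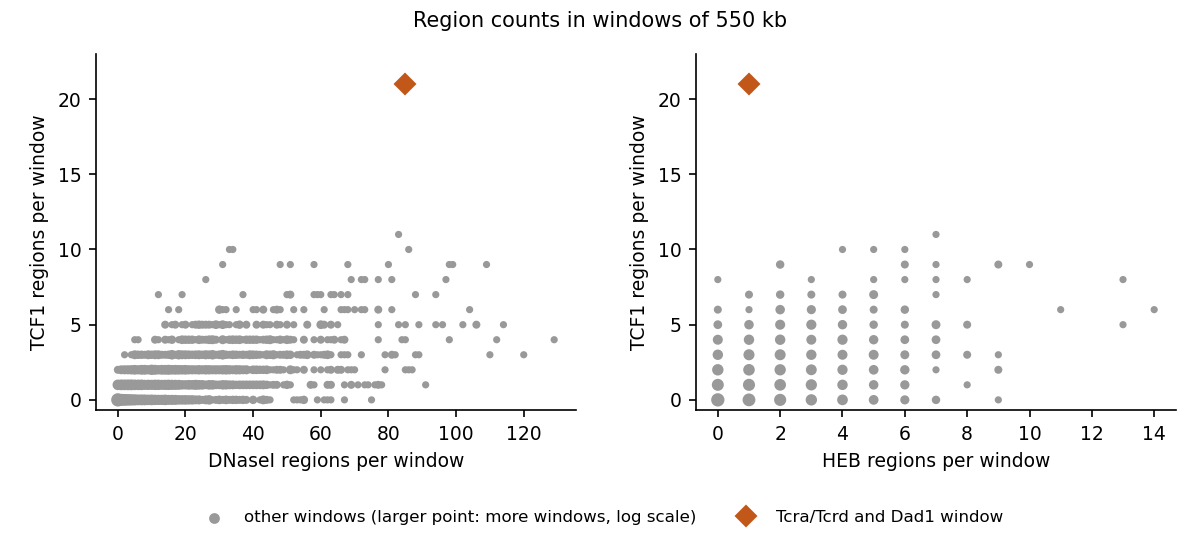
TCF1 regions per 550 kb window (vertical axis, number) against DNaseI regions (left) and HEB regions (right) per window; grey points are the other windows, larger where more windows share a value on a log scale, and the diamond is the Tcra, Tcrd and Dad1 window. The diamond stands at 21 TCF1 regions, and the highest grey point stands at 11.

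The members were gathered toward the right end of the window. By blocks of 50 kb from the window's start, and counting by region centres, the DNaseI regions numbered 9 in the first block and 1 in each of the next 4. The sixth block held 2 and the seventh held 4. The eighth (chr14:54750001-54800000) then held 22, the ninth (chr14:54800001-54850000) 33 and the tenth (chr14:54850001-54900000) 11. The last block held none. Open regions covered 20.9%, 32.4% and 10.7% of these 3 crowded blocks, against 0.402% to 2.78% of the second to seventh and 7.05% of the first. TCF1 followed the same blocks, with 8 regions in the eighth, 11 in the ninth and 1 in the next. The fifth block held the one remaining TCF1 region, and the other 7 blocks held none.

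The 3 longest gaps between neighbouring DNaseI members all lay left of that crowded part. They were chr14:54501443-54580686 (79244 bp), chr14:54426689-54495717 (69029 bp) and chr14:54611344-54678997 (67654 bp). Gaps also bounded the members on both sides: 169760 bp separated the first member from the open region before it, and 100880 bp separated the last from the next. Both outer gaps reach beyond the window. With 50 kb added at each end the count therefore rose only from 85 DNaseI regions to 87. With 50 kb taken off each end it fell to 76, as the 9 regions of the first block dropped out.

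**Figure D2:**
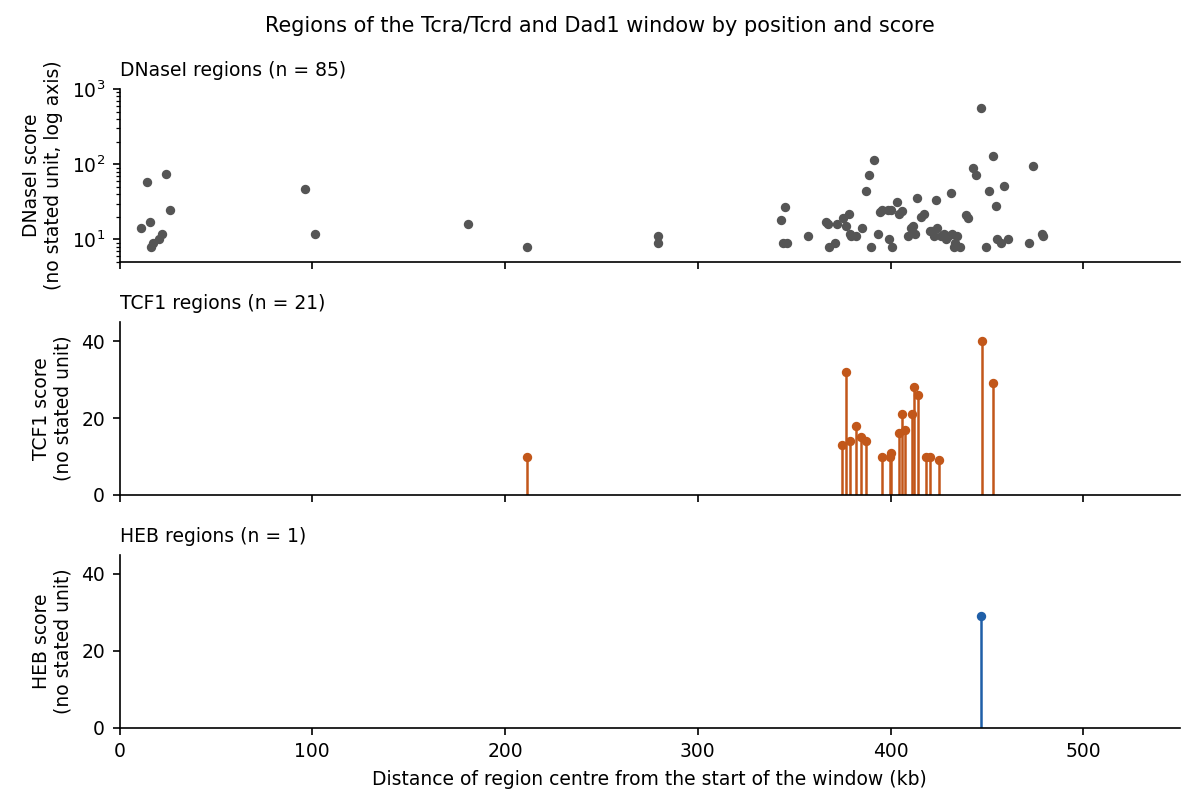
Score of each member (vertical axes, no stated unit; log axis for DNaseI) against the distance of its centre from the start of the 550 kb window (kb), for 85 DNaseI, 21 TCF1 and 1 HEB regions. Most DNaseI regions and 20 of the 21 TCF1 regions stand in the dense stretch on the right, and the HEB region stands at the tallest DNaseI point.

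Open regions followed each other closely from chr14:54766109 to 54861074. When DNaseI regions up to 5 kb apart were joined, this stretch held 61 regions over 94966 bp, and it ranked first of 25342 stretches in the whole list both by number of regions and by length. The second, chr12:109146066-109223167, held 46 regions over 77102 bp. Inside the stretch here 31.6% of the bases were open, and it carried 20 TCF1 regions and 1 HEB region. The next 5 stretches by number held 35 to 46 open regions, with 1 to 6 TCF1 and 1 to 8 HEB regions. Of the 61 open regions, 13 carried TCF1, or 21.3%, against 2.63% to 17.1% in those 5. With a join of only 2 kb the stretch broke into 10 pieces. The longest of them, chr14:54838857-54861074, held 13 open regions over 22218 bp and ranked 8th by length of 31896. The gap between neighbouring members had a median of 930 bp over the window (binomial 95% interval 649 to 1349) and of 5843 bp over the list. Of 84 gaps in the window, 47 were at most 1 kb (56.0%), against 23.6% of all gaps.

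**Figure D3:**
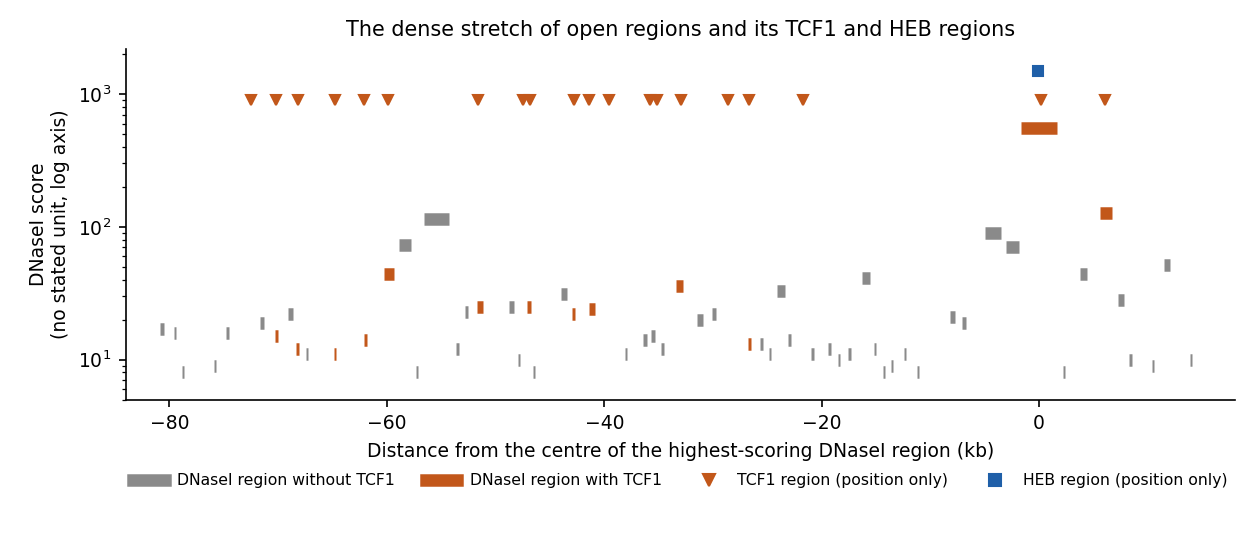
DNaseI regions of the dense stretch, each drawn to its width at the height of its score (vertical axis, no stated unit, log axis), against the distance from the centre of the highest-scoring DNaseI region (kb); orange marks regions that carry TCF1. Triangles and the square give positions of TCF1 and HEB regions, and no triangle stands between -21.7 kb and 0.175 kb.

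Most members were narrow and low-scoring open sites, much as in the whole list. The score is the authors' own value for a region, of no stated unit, and was compared only within a list. DNaseI members scored from 8 to 555 with a median of 14 (12 to 18), and the whole list had a median of 16. Their widths ran from 201 to 3358 bp with a median of 266 bp (255 to 330), against 315 bp in the list. The smallest width in the window, 201 bp, was that of 20 members, or 23.5% (95% exact Clopper-Pearson interval 15.0 to 34.0%), and of 26.4% of the list. Scores and widths go together in this list (Spearman's rho 0.940 over 48320 regions, which are not replicates). Ranked among regions of their own width decile, the members had a median score percentile of 54.9 (35.3 to 61.9), where the list has 50.4. The quartiles of this percentile were 24.3 and 73.4 among the members, close to the 25.2 and 74.0 of the list.

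**Figure D4:**
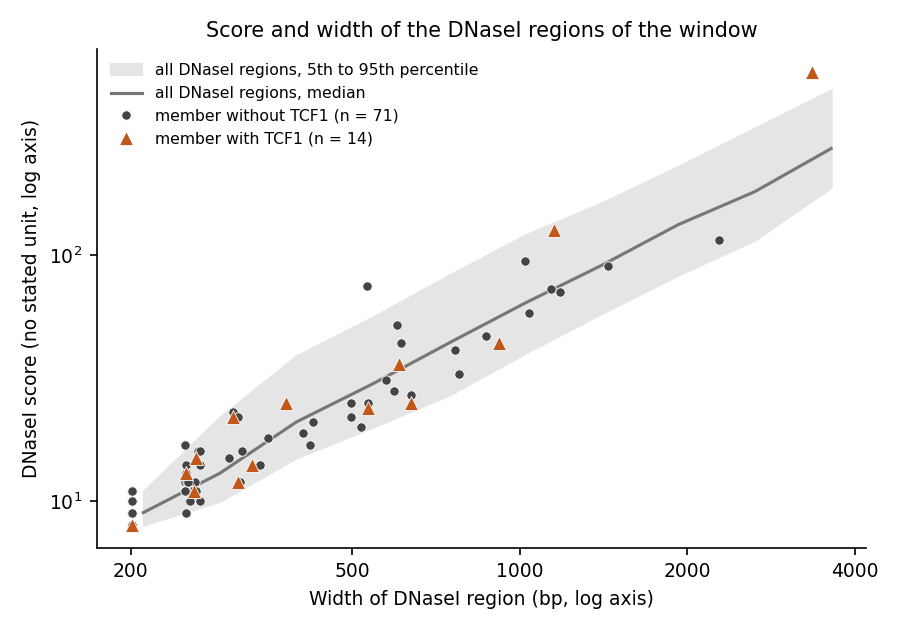
Score (vertical axis, no stated unit, log axis) against width (bp, log axis) of the 85 DNaseI members, with triangles for the 14 that carry TCF1; the grey band and line give percentiles 5 to 95 and the median of all 48320 DNaseI regions by width. Most members lie inside the band at widths under 1000 bp. Among those above it are the region of score 555 and one of 531 bp with score 75.

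The highest-scoring member, chr14:54845340-54848697, was 3358 bp wide with a score of 555. It shared rank 2 of all 48320 DNaseI regions by score and was 30th by width. Its neighbours on the left, chr14:54843951-54845132 (score 71) and chr14:54842071-54843514 (score 90), lay 207 bp from it and 436 bp from each other. On the right, chr14:54852607-54853758 had the second highest score of the members, 127, at a width of 1152 bp, and chr14:54858490-54859091 scored 52. The block of 10 kb around the highest region, chr14:54840001-54850000, was 65.9% open by the same count over region centres. A second group of high scores lay left of it. There chr14:54790449-54792728, the second widest member at 2280 bp, scored 115, and chr14:54788095-54789235 scored 73. The remaining members among the 10 highest stood outside the dense stretch: chr14:54873179-54874199 (score 95) on its right, and chr14:54423829-54424359 (75) and chr14:54414004-54415042 (58) near the window's left edge.

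The 10 highest were also the 10 members with scores above 50. Among them 2 carried TCF1, those of scores 555 and 127, and 26.3% of all DNaseI regions with scores above 50 did. The other 8 carried neither factor, as did 66.7% of all such regions, so both counts were near those of the list. The 8 include the region of 2280 bp with score 115 and the pair directly left of the highest region. The longest interval without TCF1 inside the dense stretch, chr14:54825393-54847102, reached leftward from the highest region. It held 14 whole open regions, of scores 8 to 90 with a median of 11.5.

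Counted over all scores, 14 of the 85 DNaseI members carried a TCF1 region, or 16.5% (9.31 to 26.1%), and 6.10% of the whole DNaseI list did. One carried HEB, or 1.18% (0.0298 to 6.38%), beside 3.43% of the list, and the same one carried both factors, beside 1.28%. The TCF1 share was set out by the quartiles of the list's scores. At scores of 8 to 10, 1 of 21 members carried TCF1, or 4.76% (0.120 to 23.8%), beside 0.661% of the list. At 11 to 16 the share was 5 of 29, or 17.2% (5.85 to 35.8%), beside 1.79%. At 17 to 33 it was 4 of 20, or 20% (5.73 to 43.7%), beside 4.28%. At 34 to 871 it was 4 of 15, or 26.7% (7.79 to 55.1%), beside 18.6%. The interval of the locus lay above the list's share in both middle classes and included it in the highest class. It also included the list's share in the lowest class. These intervals treat neighbouring sites as independent, which sites of 1 locus in 1 sample need not be.

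**Figure D5:**
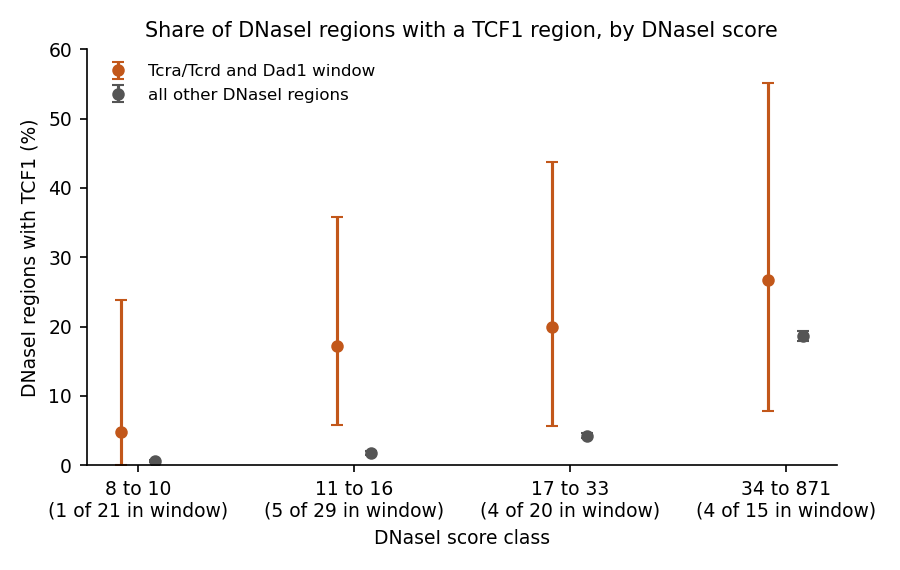
Share of DNaseI regions that carry a TCF1 region (vertical axis, percent) by DNaseI score class (horizontal axis), with exact 95% intervals, for the window (orange) and for all other DNaseI regions (grey). The orange points run from 4.76% to 26.7% with wide intervals, and in the classes 11 to 16 and 17 to 33 these lie above the grey points.

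The open regions under TCF1 had a lower median score and a smaller median width here than over the whole list. The 14 members with TCF1 had a median DNaseI score of 23 (12 to 44) and a median width of 355 bp (260 to 919). Over all 2947 DNaseI regions with TCF1 these medians were 56 and 739 bp. The interval of the width included the list's value, and that of the score did not. The 71 members without TCF1 had a median score of 12 (11 to 17), against 15 for all such regions. Members with TCF1 thus stood above those without in median score, as in the whole list, at a lower level. Of the 14, 6 scored 16 or less. Of the 2947 in the list, 84 scored 8 to 10 and 218 scored 11 to 16.

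Some of the TCF1 regions scored high within their own list. The scores of all 21 ran from 9 to 40 with a median of 15 (10 to 21). That interval included the list's median of 11. Above that median were 14 of the 21, 1 was at it and 6 were below. Many scores of the list are tied, and a score of 11 began at rank 1402 of 3546 and one of 10 at rank 1955. Fewer regions of the list thus lay above 11 than at or below it. The highest of the 21, chr14:54847103-54847285 with a score of 40, ranked 17th of 3546 and lay in the open region of score 555. Next came chr14:54776758-54776940 with a score of 32, rank 44, in an open region of only 262 bp and score 15. The third, chr14:54852982-54853164 (score 29), lay in the open region of score 127. The fourth, chr14:54811780-54811962 (score 28), lay in no listed open region. The fifth, chr14:54813965-54814147 (score 26), lay in one of score 36. These 5 were in the top 5 percent of the TCF1 list. High TCF1 scores thus occurred on open regions of high and low score and outside the DNaseI list. Across the 14 TCF1 regions in an open region, TCF1 and DNaseI scores had a Spearman's rho of 0.45, and across 3010 in the list it was 0.11. Both are descriptions over sites of the same libraries.

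Of the 21 TCF1 regions, 18 formed an unbroken chain with gaps under 10 kb. It ran over 50933 bp, chr14:54774460-54825392, and no HEB region lay in it, while 33 open regions did. Over the series, HEB regions averaged 1.03 per 550 kb window and met 3.43% of DNaseI regions. A lack of HEB over this length is thus near the background. Joined in the same way, the whole TCF1 list fell into 3134 chains, of which 2791 were single regions, and the next longest chain held 5 TCF1 regions. It was on chromosome 7. That chain and the 4 that followed it by number and then by length, each of 4 TCF1 regions, held from 0 to 4 HEB regions. Neighbouring TCF1 members lay a median of 2840 bp apart (1792 to 4132), and over the list this gap was 186552 bp. Outside the chain stood the TCF1 regions of scores 40 and 29 on its right and one of score 10 on its left, chr14:54611235-54611417. That last one overlapped an isolated open region of 201 bp with the lowest score of the list, 8.

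TCF1 regions in this locus fell in listed open chromatin in 14 of 21 cases, or 66.7% (43.0 to 85.4%), beside 84.9% of the TCF1 list. That interval included the list's share. Wholly inside an open region were 9 of 21, or 42.9% (21.8 to 66.0%), beside 67.8% of the list, a share just above the interval. In the chain these 9 included the TCF1 regions of scores 32, 14 and 18 at chr14:54776758-54776940, chr14:54778733-54778915 and chr14:54782138-54782320. Their centres lay within 15.5 bp of the centres of open regions of 262, 312 and 260 bp. Also wholly inside were chr14:54787036-54787218 (score 14), chr14:54795278-54795460 (score 10) and chr14:54800051-54800233 (score 11), in open regions of scores 44, 25 and 25. Over the 14 in an open region, the distance between the centres had a median of 95.2 bp (15.5 to 175.5) and a maximum of 251.5 bp, and the list had a median of 119 bp.

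The 5 TCF1 regions that were partly inside met the flank of an open region. At chr14:54784779-54784961 (score 15), 81 bp overlapped and the centre lay outside the open region. At chr14:54805564-54805746 (score 21) the overlap was 107 bp, at chr14:54804155-54804337 (score 16) it was 171 bp and at chr14:54820238-54820420 (score 10) it was 168 bp. The isolated region on the left, of score 10, overlapped by 109 bp.

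The 7 TCF1 regions outside the DNaseI list all lay in the chain and near open regions. Their gaps to the nearest one ran from 11 to 1197 bp with a median of 679 bp, and over all 536 such TCF1 regions the median was 5395.5 bp. No gap between neighbouring open regions of the dense stretch exceeded 2994 bp, so any site there lies near one. The contrast with the list therefore cannot be told apart from the density of open regions here. Nothing particular to these TCF1 regions was tested. A pair of them flanked the same open region, chr14:54811344-54811644 (score 15): chr14:54811150-54811332 (score 21) ended 11 bp before it, and chr14:54811780-54811962 (score 28) began 135 bp after it. The others were chr14:54799462-54799644 (score 10, gap 224 bp), chr14:54774460-54774642 (13, 679 bp) and chr14:54825210-54825392 (9, 683 bp). The last 2, chr14:54818280-54818462 (10) and chr14:54807371-54807553 (17), were 1021 and 1197 bp away. Their scores had a median of 13, and those of the 14 in open regions a median of 15.5. When gaps of at most 500 bp also counted, 81.0% of the TCF1 members met an open region, as did 88.7% of the TCF1 list.

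HEB was found at 1 place in the window, chr14:54846813-54847013, inside the highest-scoring open region. Its score of 29 ranked 228th of 4930 HEB regions, and it lay in a DNaseI region, as did 34.5% of the HEB list. The TCF1 region of score 40 lay beside it, with a gap of 89 bp and 281 bp between the centres. In the whole series 619 DNaseI regions carried both factors. In 534 of them a HEB and a TCF1 region overlapped, and this one was among the 85, or 13.7%, in which none did. The median distance between the nearest centres in the 619 was 55 bp. By DNaseI score this region came second of the 619, and by width 17th. No HEB region was listed in the remaining 84 DNaseI members. The depth of the HEB library is unknown, so no limit could be put on HEB binding at these sites.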

How the data were processed

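DNaseI, HEB and TCF1 region lists of DP thymocytes, 1 sample each, were used; 2 further samples of the series, for histone marks, were not analysed here. The deposited lists hold positions and, for each region, a score in whole numbers, whose unit and normalization are not stated. Per the submitters' processing notes, the tool HOMER 6.1 and the build mm9 were used, in roles not described. The sources used here do not name the aligner, calling thresholds, controls or read totals, so depth is unknown. How regions were called could affect the results: HEB regions are all 201 bp and TCF1 regions all 183 bp, while DNaseI regions vary in width.

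Starts were read as BED positions counted from 0 and are printed counted from 1. Overlap was at least 1 bp, a region belonged to the window if it overlapped it, and gaps are the bases between neighbours. Shares carry 95% exact Clopper-Pearson intervals, densities exact Poisson intervals and medians binomial order-statistic intervals. All HEB and TCF1 members, the 10 highest DNaseI members, the 3 longest gaps and every block of 50 kb were named by rule. The members and rules were chosen with earlier results of these data known. The score classes, chains and comparison of windows with similar DNaseI counts were chosen after seeing the values. The assignment of regions to genes and the marker check were planned for a mm9 annotation and not run. Overlap counting was tested on simulated lists against a direct count. Alternatives covered the overlap rule, the scores, the window's edges and the grid. Python 3.11.15, numpy 2.4.6, pandas 2.3.3, scipy 1.17.1 and matplotlib 3.10.9 were used.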

Additional observations from a re-analysis of the deposited data

How the results depend on the processing

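For 14 results, 61 alternatives were computed; 54 stayed within the counting interval (or within 1.5 times, for counts and ranks) and 7 moved. Restricted to scores above the median of their list, the window kept 35 DNaseI regions, ranked 65th by DNaseI and 430th by HEB, had a median gap of 1770.5 bp, and 42.9% of its TCF1 regions lay in open regions. That setting removes regions from all 3 lists by construction. By bases covered, the window ranked 41st for DNaseI instead of 26th. Joining DNaseI regions up to 500 bp apart gave a median gap of 1389 bp. The window ranked first for TCF1 under every grid, score and coverage alternative run. All TCF1 regions are 183 bp wide, so the coverage rank nearly repeats the count rank. The shifted grid kept this window unchanged, so only the counts of the other windows could differ. Shifted windows that overlapped this one counted some of the same regions again. Taking the dense stretch alone, a setting added after seeing the data, was computed for the 4 shares and for the median score, width and gap, and moved none of these 7 past its interval. No paired analysis was possible because each assay has 1 sample and no result comes from a test across samples.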
